A study of Mus musculus with 16 samples.

Results

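The genes described are 9 signals and marker genes of the intestinal stem cell niche, the tissue around the crypt base that keeps stem cells dividing: the Wnt ligands Wnt3, Wnt2b and Wnt5a, the R-spondin Rspo3, the ligand Bmp4, its antagonist Grem1, the receptor Pdgfra, and the transcription factors Foxl1 and Gli1. They were taken by symbol from the 21965 genes of the count table, all 9 were found, and all 9 passed the filter on low counts that left 13811 genes for testing. The samples were 16 libraries of poly(A) RNA from the ileum of male C57BL/6 mice, 1 library per mouse. WT PF (n = 4) and WT EtOH (n = 3) were wild-type mice, and fat-1 PF (n = 4) and fat-1 EtOH (n = 5) were littermates heterozygous for a transgene that expresses, in all tissues, a C. elegans desaturase which makes n3 from n6 fatty acids. Mice were 8 to 10 weeks old at the start of 6 weeks on liquid diet. EtOH mice received ethanol in rising steps, the last at 6% (v/v) for 3 weeks, and PF mice were pair-fed the same diet with maltose dextrin in place of ethanol.

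In the gut, Wnt ligands bind Frizzled receptors and hold epithelial cells in a dividing, undifferentiated state near the crypt base, and R-spondins strengthen that signal by keeping the receptors on the cell surface. BMP ligands act against it and favour differentiation towards the villus, while secreted antagonists such as Gremlin 1 hold BMP activity low around the stem cells. Paneth cells supply Wnt3 from within the epithelium, and fibroblasts, subepithelial cells and muscle layers beneath it supply most of the other signals. Hedgehog ligands from the epithelium act on these stromal cells, in which Gli1 is a target gene.

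Values are CPM, the counts-per-million scale, over a library size adjusted by the trimmed mean of M-values. Libraries held 8422645 to 11438539 counts, and 3 counts, taken as the detection floor, equalled 0.246 to 0.421 CPM. A gene was called at an adjusted p of at most 0.05 (edgeR quasi-likelihood test, Benjamini-Hochberg over all tested genes). Libraries differed in gut position as well as in group. The mean log2 CPM of large intestine genes such as Car1 was 4.42 in fat-1 EtOH mouse 3, 4.44 in fat-1 EtOH mouse 4 and 2.96 in WT EtOH mouse 2, against -1.26 to 0.69 in the other 13 libraries. Fat-1 PF mice 2 and 4 were highest in proximal small intestine genes (8.42 and 8.68) and lowest in the ileal bile acid genes (4.36 and 3.62). These defining ileal genes averaged 7.46 or more in the 11 libraries that are in neither set. The 3 libraries high in large intestine genes were not alike in them. Fat-1 EtOH mice 3 and 4 were at 5.93 and 6.85, and WT EtOH mouse 2 was at 8.86, within the range of the 11. Proximal genes also separated the diets in full, at 4.22 to 8.68 in PF and 0.75 to 2.11 in EtOH libraries, and so did smooth muscle genes, at 6.62 to 7.18 in PF and 7.48 to 8.37 in EtOH libraries. Gut position, muscle content and diet cannot be told apart in these groups, and in whole tissue fewer cells of a type and less RNA per cell cannot be told apart either. Results for the niche genes are therefore given with and without libraries that stood apart in gut position, though not every gene is given in every such fit. Fat-1 EtOH mouse 5 stood apart in other genes. It had the highest scores of all libraries for B-cell follicle (6.05, next 3.86), adipocyte (6.56, next 5.91) and endothelial genes (4.27, next 3.43). It was left out only in the fits that omit 1 mouse at a time.

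Upstream sequence is shown for Grem1 and Pdgfra, whose WT EtOH and WT PF mice did not overlap, and for Wnt3, which was nearly absent from 2 libraries. Each is the 250 bases before the start site in RefSeq on GRCm38.p6, read in the direction of the gene, at chr2:113758649-113758898 (minus strand) for Grem1, chr5:75152001-75152250 (plus strand) for Pdgfra and chr11:103773925-103774174 (plus strand) for Wnt3. Capitals mark matches to CCAAT or GGGCGG on either strand.
Grem1: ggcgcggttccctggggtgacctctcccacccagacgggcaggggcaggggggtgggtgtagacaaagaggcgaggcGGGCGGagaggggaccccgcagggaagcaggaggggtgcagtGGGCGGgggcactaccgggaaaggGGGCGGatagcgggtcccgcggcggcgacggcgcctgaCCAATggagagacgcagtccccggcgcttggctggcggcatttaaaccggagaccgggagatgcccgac
Pdgfra: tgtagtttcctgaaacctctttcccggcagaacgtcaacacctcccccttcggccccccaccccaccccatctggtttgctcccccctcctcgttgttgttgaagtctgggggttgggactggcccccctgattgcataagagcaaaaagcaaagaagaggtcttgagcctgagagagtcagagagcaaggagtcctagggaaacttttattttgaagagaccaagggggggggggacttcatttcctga
Wnt3: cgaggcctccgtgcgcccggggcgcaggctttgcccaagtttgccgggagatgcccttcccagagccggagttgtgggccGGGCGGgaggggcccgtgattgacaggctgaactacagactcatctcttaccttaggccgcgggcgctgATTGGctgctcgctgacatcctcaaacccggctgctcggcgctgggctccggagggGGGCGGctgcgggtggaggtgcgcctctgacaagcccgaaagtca
Grem1 held 1 CCAAT and 3 GGGCGG, Wnt3 held 1 CCAAT, on the minus strand of the window, and 2 GGGCGG, and Pdgfra held neither; no matches overlapped. CCAAT was found in 33.8% and GGGCGG in 32.7% of 32851 such windows. The GLI motif GACCACCCA (0.225% of windows), the TCF/LEF motif CTTTGA (13.8%) and TATAAA (12.4%) were in none of the 3 windows. GC content was 72.0% for Grem1, 68.0% for Wnt3 and 54.4% for Pdgfra, against a median of 52.4% over all windows. Bmp4 (63.2% GC, 1 GGGCGG) and Wnt2b (80.8% GC, 1 CCAAT and 3 GGGCGG) were searched too and held none of the other 3 motifs. Wnt5a, Rspo3, Foxl1 and Gli1 had no entry.

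Wnt3 (ENSMUSG00000000125, GRCm38 chromosome 11, 103774150 to 103817957, plus strand) encodes the ligand that Paneth cells present to neighbouring stem cells. It was 7.21, 8.15, 7.11 and 9.77 CPM in the WT PF mice and 5.72, 3.23, 7.93 and 2.70 CPM in the fat-1 PF mice. It was 4.48, 4.41 and 9.75 CPM in the WT EtOH mice and 9.22, 6.21, 0.16, 0.18 and 4.62 CPM in the fat-1 EtOH mice. Fat-1 EtOH mice 3 and 4, with 2 Wnt3 counts each, fell below the floor, the other 14 libraries lay well above it, and the EtOH and PF ranges overlapped in both genotypes. Wnt3 was not called in either diet comparison, with a log2 fold change of -0.37 ± 0.84 (SE) in WT mice (edgeR, adjusted p = 0.876) and -0.27 ± 0.76 in fat-1 mice (edgeR, adjusted p = 0.799). Without the 3 libraries high in large intestine genes the value in fat-1 mice was 0.47 ± 0.38 (edgeR, adjusted p = 0.361), so its direction rested on those libraries.

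The low Wnt3 libraries were also the low Paneth cell libraries. The mean log2 CPM of 7 Paneth cell genes was 3.54 and 3.57 in fat-1 EtOH mice 3 and 4, 8.44 and 8.86 in fat-1 PF mice 2 and 4, and 9.44 to 10.76 in the other 12 libraries. Lysozyme, Lyz1, was 42.7 and 42.3 CPM in fat-1 EtOH mice 3 and 4 and 2116 CPM or more elsewhere. The genes whose log2 CPM followed that of Wnt3 most closely over the 16 libraries were Mmp7 (Pearson r = 0.985), Upp1 (r = 0.982) and Lyz1 (r = 0.982). Over the 13 libraries low in large intestine genes these were 0.887, 0.901 and 0.852. The r values describe libraries that share depth, region and cell make-up, and the part of Paneth cell number in the Wnt3 level was not tested.

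**Figure D1:**
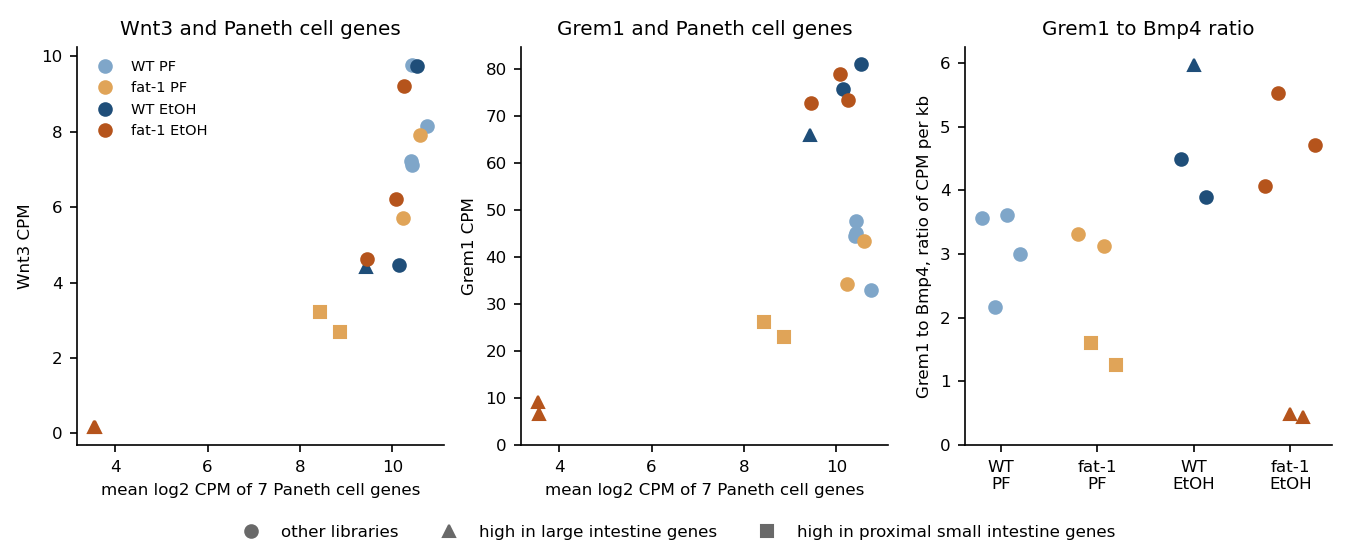
Wnt3 (left) and Grem1 (middle) in CPM against the mean log2 CPM of 7 Paneth cell genes, 1 point per library, and the Grem1 to Bmp4 ratio of CPM per kb by group (right); colour is the group, triangles are the 3 libraries high in large intestine genes and squares the 2 high in proximal genes. Fat-1 EtOH mice 3 and 4 lie apart from the rest at 3.54 and 3.57 on the Paneth axis, with Wnt3 at 0.16 and 0.18 CPM and Grem1 at 9.19 and 6.60 CPM.

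Wnt2b (ENSMUSG00000027840, chromosome 3, 104945272 to 104961921, minus strand) encodes a stromal Wnt ligand. It was 2.95, 2.72, 2.89 and 3.33 CPM in WT PF, 2.12, 3.65, 1.37 and 2.21 CPM in fat-1 PF, 3.22, 0.73 and 2.52 CPM in WT EtOH, and 2.38, 2.47, 1.72, 1.16 and 3.34 CPM in fat-1 EtOH mice. WT EtOH mouse 2 was the lowest of all and fat-1 EtOH mouse 4 the next lowest, both among the 3 libraries high in large intestine genes, and all groups overlapped. With 7 to 39 counts per library, Wnt2b was not called in any comparison, and its diet difference was -0.45 ± 0.43 log2 in WT and -0.07 ± 0.39 in fat-1 mice (edgeR, adjusted p = 0.671 and 0.893). Its sign in fat-1 mice changed without the 3 libraries (0.26 ± 0.29).

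Wnt5a (ENSMUSG00000021994, chromosome 14, 28504750 to 28527448, plus strand), a stromal ligand that signals mainly without beta-catenin, was higher in EtOH than in PF mice of the fat-1 genotype. It was 4.77, 6.32, 5.74 and 10.92 CPM in fat-1 PF and 10.36, 11.99, 16.40, 12.13 and 8.98 CPM in fat-1 EtOH mice. Fat-1 PF mouse 4 lay within the EtOH range and the other 3 below it. The log2 fold change was 0.79 ± 0.24, or 1.73-fold (edgeR, adjusted p = 0.0187; exact permutation test of log2 CPM, two-sided, p = 0.0476). In WT mice Wnt5a was 11.04, 10.41, 8.89 and 9.66 CPM with PF and 11.37, 7.56 and 12.18 CPM with EtOH, which overlapped, with a log2 fold change of 0.05 ± 0.26 (edgeR, adjusted p = 0.945). The difference between the genotypes in this response was 0.73 ± 0.36 log2 and was not called (edgeR, adjusted p = 0.595). The fat-1 call was lost with limma voom, when only the fat-1 groups were fitted, with a smooth muscle score as a covariate, under which no gene at all was called, without fat-1 EtOH mice 3 and 4 (0.62 ± 0.25, adjusted p = 0.0681), without the 3 libraries high in large intestine genes (0.62 ± 0.23, adjusted p = 0.0592), without fat-1 PF mouse 1 (0.65, adjusted p = 0.0507) and without fat-1 PF mouse 3 (0.72, adjusted p = 0.0503), and held without the 2 proximal libraries (1.19 ± 0.25, adjusted p = 0.0141) and without these and the 3 together (1.01 ± 0.20, adjusted p = 0.0161).

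Rspo3 (ENSMUSG00000019880, chromosome 10, 29452416 to 29535867, minus strand) encodes a stromal R-spondin, which acts through LGR receptors to prolong Wnt signalling. It was 2.19, 2.94, 3.67 and 3.12 CPM in WT PF and 2.01, 3.37, 2.87 and 2.21 CPM in fat-1 PF mice. It was 4.83, 4.20 and 3.61 CPM in WT EtOH and 2.57, 2.89, 1.39, 1.34 and 2.22 CPM in fat-1 EtOH mice. All 5 fat-1 EtOH mice were below all 3 WT EtOH mice. The log2 fold change between them was -1.01 ± 0.27 (95% interval -1.60 to -0.43), with the smallest exact p that 5 against 3 mice allow (two-sided permutation test, p = 0.0357), but it was not called over all genes (edgeR, adjusted p = 0.757). Of all tested genes, 1.02% had every fat-1 EtOH mouse below every WT EtOH mouse. The lowest values were again in fat-1 EtOH mice 3 and 4, and without the 3 libraries high in large intestine genes the difference was -0.72 ± 0.29. Within genotypes, the diet difference was 0.50 ± 0.29 for WT and -0.32 ± 0.27 for fat-1 mice (edgeR, adjusted p = 0.442 and 0.354), and the difference between these was -0.82 ± 0.39 and not called (edgeR, adjusted p = 0.595).

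Bmp4 (ENSMUSG00000021835, chromosome 14, 46383520 to 46390669, minus strand), the BMP ligand of the stroma, was not called in any comparison. It was 6.78, 8.26, 6.78 and 8.63 CPM in WT PF, 5.62, 8.84, 7.52 and 9.94 CPM in fat-1 PF, 9.13, 5.98 and 11.26 CPM in WT EtOH, and 9.79, 7.74, 10.09, 8.21 and 8.38 CPM in fat-1 EtOH mice. All 4 groups overlapped, and fat-1 EtOH mice 3 and 4 were within the range of the rest. The diet difference was 0.21 ± 0.22 log2 in WT mice (95% interval -0.26 to 0.68) and 0.15 ± 0.20 in fat-1 mice (-0.27 to 0.57), and neither was called (edgeR, adjusted p = 0.700 and 0.564). Without the 3 libraries high in large intestine genes it was 0.42 in WT and 0.15 in fat-1 mice, again not called. With 1 mouse left out it ran from -0.0083 to 0.42 in WT and from 0.021 to 0.28 in fat-1 mice.

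Grem1 (ENSMUSG00000074934, chromosome 2, 113746164 to 113758646, minus strand), the secreted antagonist of BMP ligands, had the highest group mean of the 9 genes in every group. In fat-1 EtOH mice 3 and 4 it was below Pdgfra, Wnt5a and Bmp4. It was 44.48, 33.05, 45.21 and 47.80 CPM in WT PF and 34.34, 26.25, 43.46 and 22.95 CPM in fat-1 PF mice. It was 75.75, 65.92 and 80.99 CPM in WT EtOH and 73.45, 78.92, 9.19, 6.60 and 72.88 CPM in fat-1 EtOH mice. All EtOH mice but fat-1 EtOH mice 3 and 4 were above every PF mouse, and those 2 were below every other mouse. In WT mice every EtOH mouse was above every PF mouse, as for 12.2% of all tested genes, and the log2 fold change was 0.80 ± 0.64, or 1.74-fold (edgeR, adjusted p = 0.591; exact two-sided permutation test, p = 0.0571, the smallest that 3 against 4 mice allow). In fat-1 mice the fitted value was 0.60 ± 0.57 (edgeR, adjusted p = 0.422). The difference in mean log2(CPM + 0.5) of the same mice was -0.0043 (exact two-sided permutation test, p = 1), so the direction in fat-1 mice depended on the scale of averaging.

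All groups share 1 estimate of the spread in these fits, and leaving out fat-1 EtOH mice 3 and 4 lowered the SE of Grem1 in WT mice from 0.64 to 0.18. Without the 3 libraries high in large intestine genes, Grem1 was called higher with EtOH in fat-1 mice (1.27 ± 0.19, 2.41-fold; edgeR, adjusted p = 0.00209) and over both genotypes (1.07 ± 0.14, 2.10-fold; adjusted p = 0.000606). In WT mice it was 0.88 ± 0.21 (edgeR, adjusted p = 0.0743). Without fat-1 EtOH mice 3 and 4 alone, Grem1 was called in WT mice as well (0.80 ± 0.18, adjusted p = 0.0445), and without the 2 proximal libraries in addition to the 3 it was called in fat-1 mice (0.96 ± 0.16, adjusted p = 0.0136), in WT mice (0.89 ± 0.14, adjusted p = 0.0206) and over both (0.93 ± 0.11, adjusted p = 0.000961). WT EtOH mouse 2, the other library high in large intestine genes, held Grem1 at 65.92 CPM and Paneth cell genes at 9.44. The genes most like Grem1 over the 16 libraries were Cubn (r = 0.972), Pml (r = 0.962) and C2 (r = 0.952), with r of 0.915, 0.941 and 0.819 over 13 libraries.

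The balance of antagonist and ligand followed Grem1. The Grem1 to Bmp4 ratio of CPM per kb of exon was 3.56, 2.17, 3.62 and 3.00 in WT PF and 3.31, 1.61, 3.13 and 1.25 in fat-1 PF mice. It was 4.49, 5.97 and 3.90 in WT EtOH and 4.07, 5.53, 0.49, 0.44 and 4.71 in fat-1 EtOH mice. Grem1 exceeded Bmp4 per length in 14 of 16 libraries, and Bmp4 exceeded Grem1 in fat-1 EtOH mice 3 and 4. The 3 WT EtOH ratios were above the 4 WT PF ratios (exact two-sided permutation test on log2 ratios, p = 0.0571, the smallest possible), and the fat-1 groups overlapped (p = 0.841 by the same exact test).

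Pdgfra (ENSMUSG00000029231, chromosome 5, 75152292 to 75198215, plus strand), the PDGF receptor that marks the fibroblasts and subepithelial cells of the niche, was higher in EtOH than in PF mice of both genotypes. It was 18.03, 19.81, 16.88 and 24.32 CPM in WT PF and 33.40, 29.08 and 31.09 CPM in WT EtOH mice. It was 19.18, 18.53, 16.13 and 23.32 CPM in fat-1 PF and 37.06, 30.70, 36.58, 26.23 and 23.78 CPM in fat-1 EtOH mice. Every EtOH mouse was above every PF mouse within both genotypes, as for 12.2% (WT) and 10.6% (fat-1) of all tested genes, and the libraries high in large intestine genes lay among the other EtOH mice. The log2 fold change was 0.68 ± 0.15 (1.60-fold) in fat-1 mice and was called (edgeR, adjusted p = 0.00417; exact two-sided permutation test, p = 0.0159, the smallest that 5 against 4 mice allow). In WT mice it was of like size, 0.66 ± 0.17 (1.58-fold), and was not called by edgeR (adjusted p = 0.166; exact two-sided permutation test, p = 0.0571). Over both genotypes it was 0.67 ± 0.11, and was called (edgeR, adjusted p = 0.000871), and the 2 responses differed by 0.02 ± 0.23 (95% interval -0.47 to 0.51).

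The Pdgfra difference was as large without the 3 libraries high in large intestine genes (0.70 ± 0.13 over both genotypes; edgeR, adjusted p = 0.00207) and without those and the 2 proximal libraries (0.76 ± 0.14, adjusted p = 0.00359). Smooth muscle genes differed between the diets as well. In fat-1 EtOH mice 10 of 10 were called higher, where 18.7% of all tested genes were, and 7 of 10 with the 3 and 2 libraries left out, where 4.27% were. In WT mice edgeR called 0 of 10, where it called 0.0796% of all tested genes. With the smooth muscle score, which itself separates the diets, as a covariate, the Pdgfra difference was 0.59 ± 0.27 and no longer called (edgeR, adjusted p = 0.206). With that covariate edgeR called 0% of all tested genes in each of the 3 diet comparisons, and 22.4% had an unadjusted p under 0.05 over both genotypes, so the loss was not particular to Pdgfra. With EtOH in the fat-1 genotype, 6 of the 10 fibroblast matrix genes were called higher and 1 lower. Of all tested genes, 18.7% were called higher and 18.8% lower. The mean of this list overlapped between the fat-1 diets (PF, 5.24 to 5.73 log2 CPM; EtOH, 5.35 to 5.89), but its members did not move together. Fbln1 fell, with 140.6 CPM or more in each PF mouse of this genotype and at most 40.74 with EtOH. Col1a2, Col6a3, Dcn and Lum were higher in every EtOH mouse than in every PF mouse of this genotype. Col1a1, Col3a1, Col6a1, Col6a2 and Vim overlapped. A mean of the list without Fbln1 was not taken. The part of cell make-up in the Pdgfra level was not tested. The genes most like Pdgfra were Snapc3 (r = 0.916), Nmu (r = 0.898) and Dtna (r = 0.893) over the 16 libraries.

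Foxl1 (ENSMUSG00000097084, chromosome 8, 121127940 to 121130644, plus strand), a transcription factor of subepithelial niche cells, had the fewest counts, 6 to 19 per library. It was 0.68 to 1.45 CPM in WT PF, 0.64 to 2.11 CPM in fat-1 PF, 1.16 to 1.60 CPM in WT EtOH and 0.62 to 1.71 CPM in fat-1 EtOH mice. All groups overlapped, and fat-1 PF mice 2 and 4 were the highest of all at 2.11 and 1.84 CPM. No difference was called (diet, 0.30 ± 0.43 log2 in WT and -0.19 ± 0.38 in fat-1 mice, with edgeR adjusted p = 0.787 and 0.718). Foxl1 was most like Sfrp1 (r = 0.837 over 16 libraries).

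Gli1 (ENSMUSG00000025407, chromosome 10, 127329882 to 127341974, minus strand), the transcription factor and target of hedgehog signalling, was 4.04, 3.28, 2.00 and 3.43 CPM in WT PF and 1.38, 4.91, 1.91 and 3.31 CPM in fat-1 PF mice. It was 3.40, 3.67 and 4.12 CPM in WT EtOH and 4.75, 3.40, 5.58, 3.39 and 3.16 CPM in fat-1 EtOH mice. All groups overlapped. The diet difference was 0.23 ± 0.36 in WT and 0.50 ± 0.33 in fat-1 mice, neither called (edgeR, adjusted p = 0.818 and 0.235). Fat-1 PF mice 2 and 4, the proximal libraries, held more Gli1 than fat-1 PF mice 1 and 3, and without mice 2 and 4 it was called higher in fat-1 EtOH mice (1.31 ± 0.34, 2.48-fold; edgeR, adjusted p = 0.0272). Gli1 was most like Sall1 (r = 0.882 over 16 libraries).

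**Figure D2:**
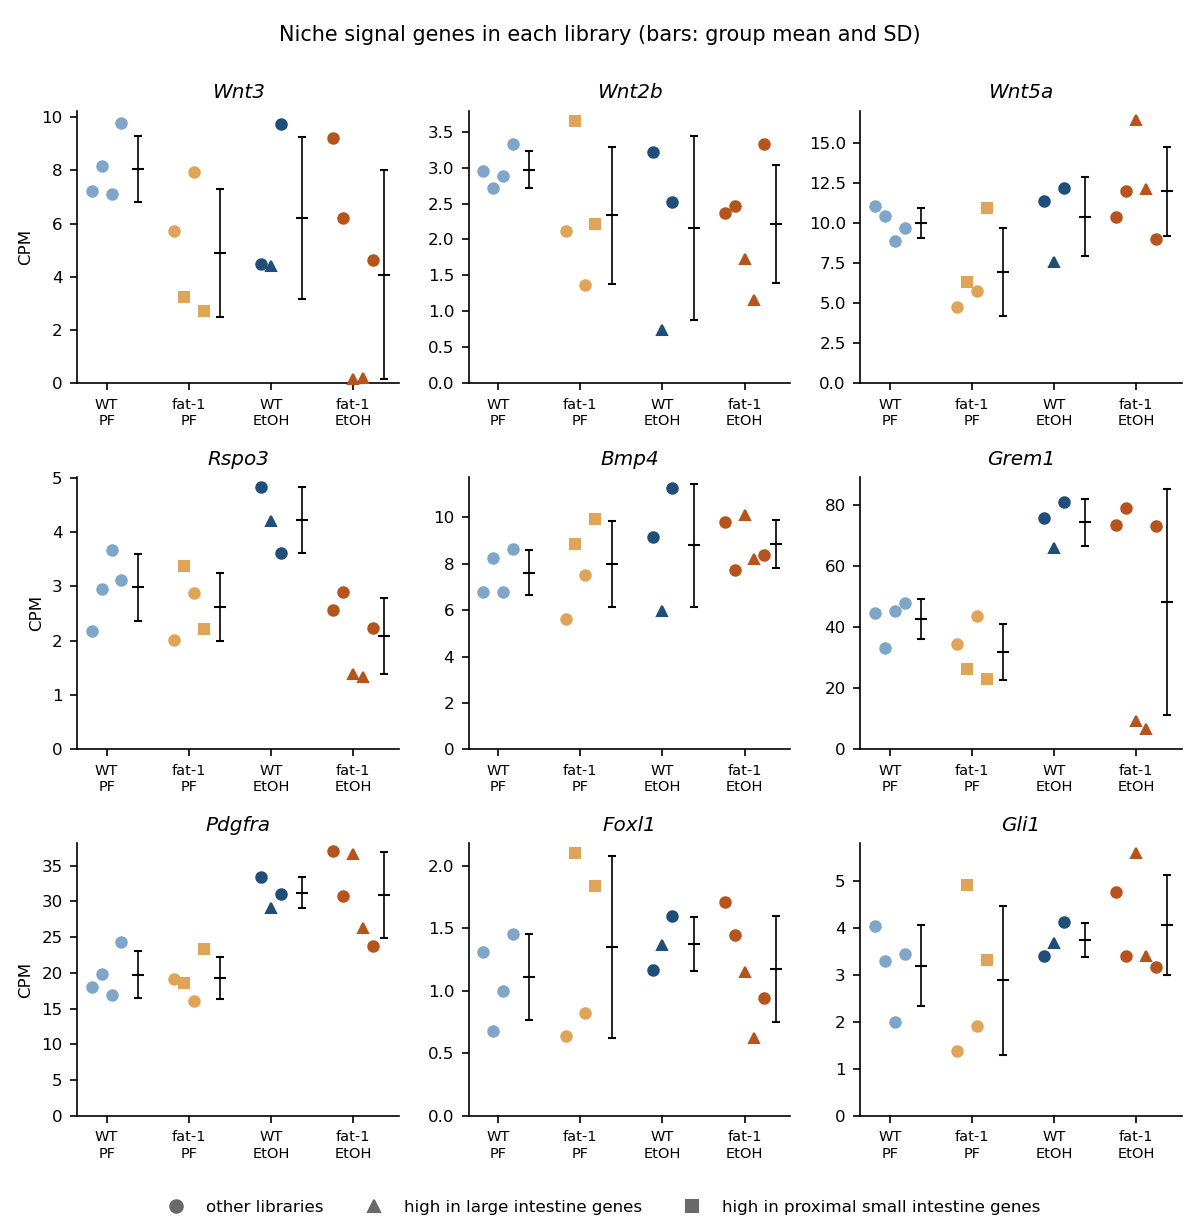
CPM of the 9 niche genes in each of 16 libraries by group, with the group mean and SD as a bar beside the points; triangles are the 3 libraries high in large intestine genes and squares the 2 high in proximal genes. Pdgfra is higher in every EtOH mouse than in every PF mouse of the same genotype, Grem1 is so except in fat-1 EtOH mice 3 and 4, and Wnt3 is near 0 in those same 2 libraries.

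In order of level per kb of exon in WT PF mice, Grem1 (10.3 ± 1.58 CPM per kb, SD, n = 4) was followed by Bmp4 (3.39 ± 0.43), Wnt3 (2.62 ± 0.40), Pdgfra (1.97 ± 0.33), Wnt5a (1.28 ± 0.12), Rspo3 (0.96 ± 0.20), Wnt2b (0.71 ± 0.06), Gli1 (0.64 ± 0.17) and Foxl1 (0.41 ± 0.13). Neighbours overlapped in range except Grem1 with Bmp4 and Pdgfra with Wnt5a. By group mean, Grem1 was highest, Bmp4 next and Foxl1 lowest in all 4 groups. Pdgfra followed Bmp4 in the other 3 groups, ahead of Wnt3, and in WT EtOH mice Grem1 reached 17.9 ± 1.84 CPM per kb (n = 3).

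The counts of called niche genes are set beside those of all tested genes. In fat-1 mice 2 of 9 (Wnt5a and Pdgfra) were called higher with EtOH and none lower, where 18.7% of all tested genes were called higher and 37.4% in either direction, and limma voom called 1 of 9 (Pdgfra), where it called 26.4%. In WT mice edgeR called 0 of 9, where it called 0.0796% of all genes, and 1 of 9 had an unadjusted p under 0.05, as did 14.1% of all genes. DESeq2 called 1 of 9 in WT mice (Pdgfra), where it called 2.11% of its genes, and voom 2 of 9 (Rspo3 and Pdgfra), where it called 20.3%. Over both genotypes edgeR called 1 of 9, Pdgfra, where it called 18.3% of all genes higher and 35.9% in either direction, and voom 2 of 9 (Grem1 and Pdgfra), where it called 42.2%. When only the groups compared were fitted, 2 of 9 (Grem1 and Pdgfra) were called in WT mice, where 8.32% of all genes were, and 1 of 9 (Pdgfra) in fat-1 mice, where 23.2% were. With upper-quartile scaling 2 of 9 (Wnt5a and Pdgfra) were called over both genotypes, where 38.7% of all genes were. Leaving out the 3 libraries high in large intestine genes, 2 of 9 (Grem1 and Pdgfra) were called higher in fat-1 mice and over both genotypes, where 13.9% and 15.9% of all genes were. Leaving out the 2 proximal libraries, 3 of 9 (Wnt5a, Gli1 and Pdgfra) were called higher in fat-1 mice and over both, where 5.99% and 12.1% were. Leaving out all 5, 4 of 9 (Wnt5a, Grem1, Gli1 and Pdgfra) were called higher in fat-1 mice and over both, where 4.27% and 12.9% were, and 1 of 9 (Grem1) in WT mice, where 1.65% were. Leaving out fat-1 EtOH mice 3 and 4, 1 of 9 (Grem1) was called higher in WT mice, where 0.72% of all genes were, and 2 of 9 (Grem1 and Pdgfra) in fat-1 mice and over both, where 14.7% and 17.5% were. The 9 genes had a median log2 fold change of 0.23 for WT and 0.15 for fat-1 mice, and all tested genes one of 0.01 and 0.05.

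**Figure D3:**
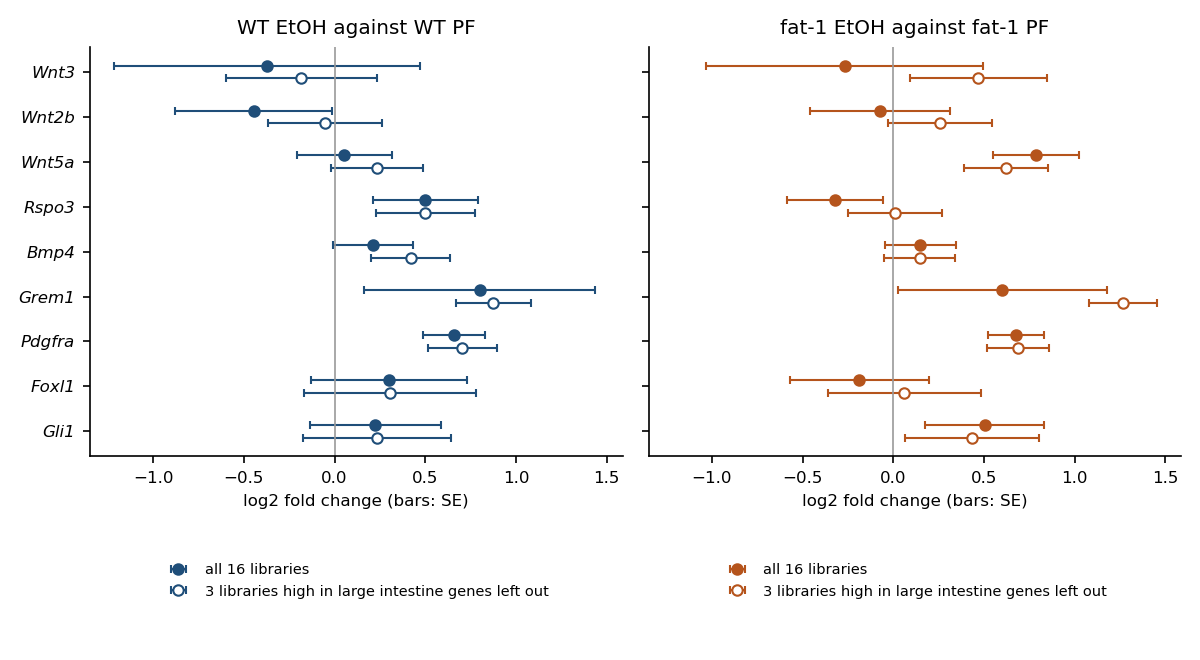
Log2 fold change of EtOH against PF for the 9 niche genes in WT (left) and fat-1 mice (right), with SE bars, from all 16 libraries (filled) and without the 3 libraries high in large intestine genes (open). Pdgfra stays between 0.66 and 0.70 throughout, while Grem1 in fat-1 mice goes from 0.60 to 1.27 and Wnt3 from -0.27 to 0.47.

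Between genotypes no niche gene was called. In fat-1 PF against WT PF mice edgeR, DESeq2 and limma voom each called 0 of 9, where they called 0%, 2.56% and 0.224% of the genes they tested, with 0 of 9 at an unadjusted p under 0.05 in edgeR, as against 12.7% of all genes. The lowest p was that of Wnt5a (-0.53 ± 0.25; edgeR, adjusted p = 0.400). In fat-1 EtOH against WT EtOH mice the 3 tools again called 0 of 9, where they called 0.00724%, 0.0363% and 0.00724%, with 1 of 9, Rspo3, at an unadjusted p under 0.05 in edgeR, as against 4.86% of all genes. For the difference between genotypes in the response to EtOH they called 0 of 9, where each called 0% of the genes it tested, with 0 of 9 at an unadjusted p under 0.05 in edgeR, as against 8.26% of all genes. Of the 36 exact tests on the niche genes, 9 genes in 4 pairs of groups, the 9 between the WT diets could not go below 0.0571, and 3 of the others gave a p under 0.05: Wnt5a and Pdgfra between the fat-1 diets and Rspo3 between the EtOH groups.

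The other genes of these pathways were counted in 13 lists of 117 genes, 89 of them tested. In fat-1 mice 24 were called higher and 11 lower with EtOH, and over both genotypes 21 higher and 12 lower, where 18.7% and 18.8% of all tested genes were called in fat-1 mice and 18.3% and 17.6% over both. In WT mice edgeR called none of the 89, and 14 had an unadjusted p under 0.05, as did 14.1% of all tested genes. DESeq2 called 1 higher in WT mice, where it called 0.689% of its genes higher, and limma voom 10 higher and 7 lower, where it called 9.86% and 10.4%, so these WT counts were near those of all genes. The 89 had a median log2 fold change of 0.28 for fat-1 and 0.05 for WT mice. Without the 3 libraries high in large intestine genes 88 were tested, and 20 were called higher and 10 lower over both genotypes, where 15.9% and 17% of all genes were, and 16 higher and 9 lower in fat-1 mice, where 13.9% and 15.8% were. Without those and the 2 proximal libraries the numbers of 88 were 17 and 9 over both, where 12.9% and 14.7% of all genes were called, and 7 and 7 in fat-1 mice, where 4.27% and 7.59% were.

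Of the 6 BMP target genes, which cells raise when BMP signals reach them, 5 were called lower with EtOH over both genotypes, where 17.6% of all tested genes were: Id2 (-0.74 ± 0.17), Smad6 (-0.61 ± 0.15), Smad7 (-0.54 ± 0.11), Id1 (-0.48 ± 0.16) and Id3 (-0.39 ± 0.12; edgeR, adjusted p between 0.00254 and 0.0349 for the 5). Id1, Id2 and Id3 encode inhibitors of helix-loop-helix transcription factors, and Smad6 and Smad7 inhibitors of the receptor signal. The same 5 were called lower without the 3 libraries high in large intestine genes (-0.42 to -0.59), where 17% of all genes were, and without the 2 proximal libraries as well (-0.46 to -0.69), where 14.7% were. In fat-1 mice these 5 were called lower, where 18.8% of all genes were, and Id4 higher (0.63 ± 0.22), which was not called with the 3 and 2 libraries left out (0.34 ± 0.20, adjusted p = 0.247). In WT mice none of the 6 was called, with Id2 at -0.65 ± 0.26 (edgeR, adjusted p = 0.280). The list had a median of -0.25 for WT mice, -0.77 for fat-1 mice and -0.51 over both, where all tested genes had 0.01, 0.05 and 0.04.

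Other BMP antagonists were called higher for 4 of 8 over both genotypes, where 18.3% of all tested genes were, and none lower, among them Bmper (1.26), Chrdl1 (0.63) and Twsg1 (0.34). With the 3 and the 2 libraries left out, 2 of 8 were called, Chrdl1 (0.80) and Twsg1 (0.39), where 12.9% of all genes were called higher. Of 7 other BMP ligands 1 rose, Bmp3 (1.29), and 1 fell, Bmp8a (-0.81), and with those libraries left out Bmp3 was called (0.95) and Bmp8a was not (-0.46, adjusted p = 0.182). Of 9 BMP receptors and SMADs, Smad5 rose (0.21) and Smad4, the shared partner of the pathway, fell (-0.67), and both were called with those libraries left out (0.28 and -0.67). The ligand and receptor counts were no higher than the shares of all genes called, 18.3% higher and 17.6% lower.

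On the Wnt side, 4 of 14 receptors were called higher over both genotypes and none lower, where 18.3% of all tested genes were called higher and 17.6% lower, with Fzd3 (2.28), Fzd8 (1.19) and Fzd1 (0.55) highest. With the 3 and 2 libraries left out these were 1.52, 0.82 and 0.42, all still called. Wls, the carrier that Wnt ligands need for secretion, rose by 1.06 ± 0.17 (edgeR, adjusted p = 0.000595) and was also called with the 3 and 2 libraries left out (0.86, adjusted p = 0.00207). Of the 5 other Wnt ligands tested, Wnt4 (-1.45) and Wnt6 (-0.95) fell, and with those libraries left out Wnt4 was called (-0.96) and Wnt6 was not (-0.85, adjusted p = 0.1005). Of 10 Wnt target genes Cd44 (1.19) and Ephb3 (0.52) rose and Sp5 (-2.68) fell, and with those libraries left out Cd44 (0.84) and Sp5 (-2.27) were called and Ephb3 was not (0.28, adjusted p = 0.153). Of 5 secreted Wnt inhibitors Frzb (1.08) and Dkk3 (0.28) rose and Sfrp5 (-1.10) fell, and with those libraries left out Dkk3 was called (0.38) and Frzb (1.22, adjusted p = 0.0656) and Sfrp5 (-0.81, adjusted p = 0.109) were not. None of the 4 R-spondin receptor and turnover genes tested, nor the 1 other R-spondin tested, was called over both genotypes, and Znrf3 was called higher in fat-1 mice (0.63) but not with those libraries left out (0.39, adjusted p = 0.311). The members of the Wnt lists that moved did not share a direction, and the counts of Wnt target genes, 2 of 10 higher and 1 of 10 lower, were near the shares of all genes.

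In the hedgehog list, the pathway in which Gli1 acts, 5 of 13 were called higher over both genotypes and 1 lower, where 18.3% and 17.6% of all tested genes were. Boc (1.76, and 1.14 and called with the 3 and 2 libraries left out) and Smo (0.76) were among those that rose, and Ihh, the ligand of the epithelium, fell by 0.46. Smo, which passes the signal into the cell, was also called with the 3 and 2 libraries left out (0.71, adjusted p = 0.00553), as was Ihh (-0.63, adjusted p = 0.00408). Of the 5 other PDGF pathway genes 1 was called, Pdgfd, a ligand of the related receptor (0.96), a count near the share of all genes, and it was not called with those libraries left out (0.63, adjusted p = 0.0855).

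**Figure D4:**
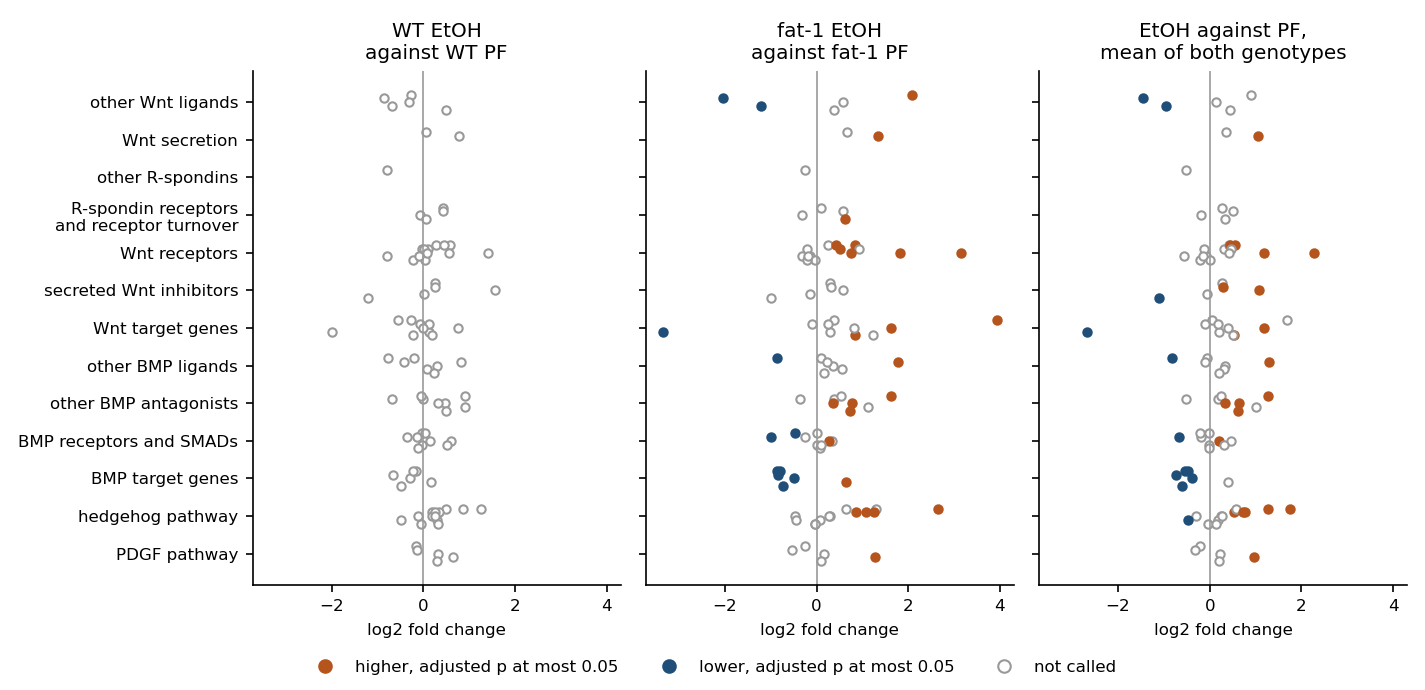
Log2 fold change of EtOH against PF for the 89 tested genes of 13 pathway lists, 1 point per gene, in WT mice, fat-1 mice and as the mean of both, filled where edgeR called the gene. In the mean of both genotypes 5 of 6 BMP target genes lie on the lower side and called, and 4 of 14 Wnt receptors and 4 of 8 BMP antagonists on the higher side.

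Exons of 5 of the 9 genes share bases with genes on the opposite strand in GENCODE M21, namely 358 bases of Wnt5a, 404 of Rspo3, 89 of Bmp4, 62 and 265 of Gli1, and 456 and 166 of Pdgfra. The libraries kept strand, but whether the counting used it is not given in the sources used here, so reads in those stretches cannot be assigned with certainty.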

How the data were processed

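Ileum poly(A) RNA was sequenced as stranded libraries. The authors deposited raw counts per gene, with Ensembl IDs, which are whole numbers without normalization. The submitters' processing notes name bcl2fastq, FastQC 0.10.1, Cufflinks and the builds mm10 and ce10, and the study's methods name TopHat2 2.0.13, Ensembl 82 and Cuffdiff 2.2.1. The settings of the counting are not given in the sources used here. Library order runs with diet, so the order and the diet cannot be told apart.

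Symbols and positions came from GENCODE M21 (GRCm38). The counts were fitted with edgeR 4.0.16 in R 4.3.3: trimmed mean of M-values, filterByExpr on the 4 groups, a robust quasi-likelihood fit of 4 group means over all 16 libraries, and contrasts for each diet, genotype and interaction comparison, with Benjamini-Hochberg adjustment over 13811 genes. Intervals are 95% t intervals of that fit. Exact permutation tests used log2(CPM + 0.5). The floor of 3 counts and all intervals cover counting or replicate error only. Mice were the replicates, so p-values set a difference against the spread between mice. In edgeR that spread was 1 estimate per gene shared by all 4 groups, and it takes in the differences in gut position between libraries. CPM per kb used the union of exons. Alternatives were DESeq2 1.42.0, limma 3.58.1 (voom), other scalings, filters and covariates, a replicate block, and libraries left out. The scripts were tested on simulated data.

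Named genes were the 9, up to 3 called genes per direction of each pathway list with the largest fold change (of the BMP lists Id1, Id3 and Twsg1 were added after their values were seen), and the genes of highest Pearson r with each of the 9. Some genes that this rule names are not reported here. The 9 genes, the lists and the libraries doubted were chosen with earlier results of these data known, so no count over them is independent evidence.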

Additional observations from a re-analysis of the deposited data

How the results depend on the processing

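Of the fold changes of the 9 genes, 255 values under other tools, scalings, filters and covariates, or without the 3 libraries high in large intestine genes, kept direction and side of the threshold, 9 gained and 6 lost a call and 20 changed sign; with the libraries that were left out after seeing the data (the 2 proximal libraries, these with the 3 high in large intestine genes, and fat-1 EtOH mice 3 and 4 alone) the numbers were 69, 12, 1 and 11. Only Wnt3, Wnt2b, Wnt5a, Rspo3 and Foxl1, none of them called where they turned, changed sign under these alternatives; the fold changes cover the 9 genes in the 3 diet comparisons, and in the genotype and interaction comparisons were examined for Wnt5a and Rspo3 alone. The causes were not tested.

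The number of the 9 called for WT diets, 0 in the report, was 1 with DESeq2, 2 with limma voom, 2 when only the groups compared were fitted (8.32% of all genes called), 1 without all 5 libraries, and 1 without fat-1 EtOH mice 3 and 4. For fat-1 diets, 2 in the report, it was 1 with voom, 1 with only the groups compared (23.2% of all genes), 0 with the smooth muscle score as a covariate, 3 without the 2 proximal libraries and 4 without all 5 libraries, and the 2 called without the 3 libraries were Grem1 and Pdgfra in place of Wnt5a and Pdgfra. For both genotypes, 1 in the report, it was 2 with voom, 2 with upper-quartile scaling (38.7% of all genes), 2 without the 3 libraries, 0 with the smooth muscle covariate, 3 without the 2 proximal libraries, 4 without all 5 and 2 without fat-1 EtOH mice 3 and 4. With the smooth muscle covariate edgeR called 0% of all genes in the 3 diet comparisons, so none of the 9 was called. Leaving out 1 mouse at a time gave 1 to 3 for fat-1 diets and 1 to 2 for both genotypes, and 0 throughout for WT diets, for both genotype comparisons and for the interaction. Without fat-1 PF mouse 2, Gli1 was called in fat-1 mice as well. With the replicate number as a block the counts were 0, 2 and 1 for the 3 diet comparisons and 0 for the other 3, as in the report, and no call changed. Same-numbered mice of different groups deviated together no more than others (mean r of -0.0225 over 21 pairs, against 0.00703 over 74), so the numbers were not taken to pair mice. Of the pathway genes in WT mice, voom called 10 higher and 7 lower (9.86% and 10.4% of all genes) and DESeq2 1 higher (0.689%).

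Log2 fold changes that changed sign were as follows. With the smooth muscle covariate, WT diets gave 1.47 for Wnt3, 0.33 for Wnt2b and -0.26 for Wnt5a, fat-1 diets 2.22 for Wnt3, 1.09 for Wnt2b, 0.58 for Rspo3 and 0.67 for Foxl1, and both genotypes 1.85 for Wnt3, 0.71 for Wnt2b and -0.00085 for Wnt5a. For fat-1 diets, voom gave 0.013 for Wnt3, 0.025 for Wnt2b and 0.033 for Foxl1, and upper-quartile scaling 0.072 for Wnt2b. For the same diets, leaving out the 3 libraries gave 0.47 for Wnt3, 0.26 for Wnt2b, 0.0085 for Rspo3 and 0.062 for Foxl1, and leaving out fat-1 EtOH mice 3 and 4 gave 0.47, 0.26, 0.0097 and 0.063 for these genes. Leaving out the 2 proximal libraries gave 0.34 for Wnt2b and 0.69 for Foxl1, and leaving out all 5 gave 0.64 for Wnt2b, 0.093 for Rspo3 and 0.92 for Foxl1. Over both genotypes, leaving out the 3 libraries gave 0.14 for Wnt3 and 0.10 for Wnt2b, all 5 gave 0.30 for Wnt2b, and fat-1 EtOH mice 3 and 4 gave 0.050 for Wnt3. With 1 mouse left out, the range was -0.078 to 0.24 for Wnt5a and -0.0083 to 0.42 for Bmp4 in WT mice, -0.79 to 0.070 for Wnt3, -0.25 to 0.23 for Wnt2b and -0.43 to 0.11 for Foxl1 in fat-1 mice, and -0.059 to 0.21 for Foxl1 over both.

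Depth limits Foxl1, Rspo3 and Wnt2b, with medians of 13, 26 and 25.5 counts. A filter of 10 counts in every library removed Wnt3, Wnt2b and Foxl1, so it gave no value for them.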

Other observations

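Some genes of other cell types were called higher in fat-1 EtOH than in fat-1 PF mice, and fat-1 EtOH mice 3 and 4, which were high in large intestine genes, had the highest levels of the interstitial cell, neuron and glia genes. All 3 genes of interstitial cells of Cajal and 5 of 8 genes of enteric neurons and glia were called higher with EtOH (edgeR), as against 0 of 6 endothelial genes, 0 of 4 mesothelial genes and, of 10 epithelial genes, 2 higher and 1 lower, where 18.7% of all tested genes were called higher and 18.8% lower, so that the epithelial counts were near those of all genes. In WT mice none of the 3 and none of the 8 was called. Without fat-1 EtOH mice 3 and 4, 2 of the 3 interstitial cell genes and 0 of the 8 neuron and glia genes were called higher in fat-1 mice, where 14.7% of all genes were, and 1 of 6 endothelial genes. The summed CPM of the interstitial cell genes was 128.9 and 100.5 in those mice and 42.0 to 42.9 in the other 3 fat-1 EtOH mice, and that of the neuron and glia genes was 39.6 and 47.0 against 15.4 to 19.3. The interstitial cell score was 2.22 to 3.02 log2 CPM in fat-1 PF and 3.39 to 4.84 in fat-1 EtOH libraries, and 3.06 to 3.40 in WT PF and 3.65 to 3.99 in WT EtOH libraries, so the diets did not overlap within either genotype. The endothelial score overlapped, at 2.68 to 3.43 in fat-1 PF and 2.81 to 4.27 in fat-1 EtOH libraries. The 4.27 was that of fat-1 EtOH mouse 5, and the next fat-1 EtOH library was at 3.35. In fat-1 mice 0 of 9 B-cell follicle genes were called with EtOH, and of 5 adipocyte genes 0 were called higher and 1 lower. Mouse 5 also had the highest scores for both of these lists. The part of these cell types in the levels of the stromal niche genes was not tested.

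For the remaining niche genes, the genes of closest log2 CPM over the 16 libraries were Pla2r1 (r = 0.897), Cntd1 (0.878) and Plekhh2 (0.858) for Wnt5a, Mb21d2 (0.848), Nckap5 (0.837) and Magi3 (0.817) for Rspo3, Ntf3 (0.813), Tmem119 (0.810) and Dennd2a (0.781) for Bmp4, and Rnf139 (0.809), Pkn3 (0.802) and Msc (0.796) for Wnt2b. Sall1 (0.882), Lhfp (0.843) and Tshz3 (0.841) were closest to Gli1, and Sfrp1 (0.837), Ano2 (0.833) and Ripply3 (0.764) to Foxl1. Over the 13 libraries low in large intestine genes, r stayed above 0.8 for Wnt5a and Gli1 with each of their 3 genes, and was 0.673, 0.635 and 0.668 for Rspo3. Among the 9 genes themselves, Wnt3 and Grem1 had r = 0.863 over the 16 libraries and 0.469 over the 13. These values describe libraries that share depth and cell make-up.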
